A study of Rattus norvegicus with 46 samples.

Results

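Intestinal stem cell genes and Wnt response genes were followed along the crypt-villus axis of the rat duodenum. The genes listed were Lgr5, Ascl2, Olfm4, Smoc2, Axin2, Sox9, Ephb2, Ephb3, Myc and Cd44, chosen by their symbols in the array's probe-to-gene annotation. Of these 10 genes, 7 had a probe set with that symbol alone, out of 14217 genes so annotated, and 3 (Olfm4, Sox9 and Ephb2) had none and are not described further. The 7 genes had 10 probe sets, 3 for Smoc2, 2 for Cd44 and 1 for each of the others, and all 10 passed the filter on low values. The brightest probe set stood for a gene in every count.

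RNA came from cryostat sections cut across the axis, so each rat gave 1 array of its villus top and 1 of its villus bottom, and 22 rats gave 44 villus arrays. The control group was 4 Wistar rats (+/+) on a normal diet. The iron-deficient group was 4 Wistar rats given low-iron food, with 2 to 3 ml of blood taken every 3 days over 4 weeks. The iron-repleted group was 3 Wistar rats treated in that way and then given 50 µM ferric ammonium citrate to drink for 3 days. Age was stated as 1 month for these Wistar rats only. Belgrade rats (b/b) carry a mutated iron transporter gene, Slc11a2, on a Wistar background. They formed a group of 4 on a normal diet, a group of 4 fed iron for 3 days and a group of 3 fed iron for 6 days. All of these rats were fasted overnight. A further +/+ rat, taken in a separate experiment, gave 1 array of lower crypt and 1 of upper crypt.

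The epithelium of the small intestine is renewed from stem cells at the crypt base, whose daughters divide in the crypt, move onto the villus and mature. Wnt ligands bind Frizzled and Lrp receptors, stabilise beta-catenin and let it act with TCF/LEF factors at target genes, and R-spondins acting through Lgr receptors amplify the signal. Lgr5, the R-spondin receptor that marks the cycling stem cells, Ascl2, a transcription factor of these cells, and Smoc2, a secreted matricellular protein, are used as stem cell genes. Axin2, a negative feedback inhibitor of the pathway, Ephb3, a receptor that sorts cells along the axis, Myc, a transcription factor of growth, and Cd44, an adhesion receptor, are used as Wnt response genes.

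The RefSeq promoter table (assembly GRCr8, 250 bases before to 50 bases after the start of a gene) held 4 of the 7 genes, Ascl2, Axin2, Ephb3 and Cd44. They were searched for CTTTGAT, a core of the TCF/LEF site, and for its reverse complement ATCAAAG. The letters were in 1 of the 4 promoters, that of Axin2, on the forward strand 132 bases before the start, and in 1216 of all 33469 promoters, or 3.63%. The promoter of Axin2 is shown because it holds the match and because this gene differed from the others in its position on the villus, and those of Ascl2 and Ephb3 are shown as promoters of genes that were higher at the villus bottom. They lie at chr10:94398535-94398834 (plus strand), chr1:207580807-207581106 (minus strand) and chr11:93363726-93364025 (minus strand). Capitals mark the match. A match describes these letters and is not a measured binding site.
Axin2: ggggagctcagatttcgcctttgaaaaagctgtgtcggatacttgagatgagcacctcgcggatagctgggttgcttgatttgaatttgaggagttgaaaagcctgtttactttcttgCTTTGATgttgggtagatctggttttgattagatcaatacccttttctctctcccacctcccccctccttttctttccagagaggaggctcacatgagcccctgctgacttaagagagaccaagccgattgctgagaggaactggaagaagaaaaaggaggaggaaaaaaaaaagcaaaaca
Ascl2: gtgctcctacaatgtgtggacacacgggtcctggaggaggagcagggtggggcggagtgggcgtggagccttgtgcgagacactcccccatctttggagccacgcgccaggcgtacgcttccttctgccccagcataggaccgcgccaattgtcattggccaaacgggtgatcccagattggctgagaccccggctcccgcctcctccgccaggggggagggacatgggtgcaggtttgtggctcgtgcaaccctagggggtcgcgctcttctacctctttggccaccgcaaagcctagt
Ephb3: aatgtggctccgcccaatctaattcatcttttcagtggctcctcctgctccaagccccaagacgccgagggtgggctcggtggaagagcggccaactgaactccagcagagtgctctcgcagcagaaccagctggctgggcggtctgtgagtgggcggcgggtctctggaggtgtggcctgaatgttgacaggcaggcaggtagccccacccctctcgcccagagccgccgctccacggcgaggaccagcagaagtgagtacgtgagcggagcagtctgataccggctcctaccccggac

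Values below are log2 intensities after quantile normalization, and a level is not comparable between probe sets. A value under 8.99, the 40th percentile of an array, was taken as dim. Control rats 1 and 2 gave nearly identical arrays in both segments, as did Belgrade rats 1 and 2 on a normal diet, so the 2 rats of a pair entered as their mean and as 1 sample, which left 20 counted samples. At the bottom, all but 2 samples had a mean level of 16 smooth muscle and stroma genes between 12.42 and 14.53, and control rat 3 (15.49) and repleted rat 3 (15.28) stood above them. Both were also low at the bottom in the mean of 12 mature enterocyte genes, at 12.55 and 11.89, where the median was 14.35. The mean of 13 exocrine pancreas genes was 7.60 to 8.36 at the bottom in 15 samples and 11.98 to 15.78 in the other 5. Markers placed the sections along the axis. All 12 tested mature enterocyte genes were called higher at the top, all 19 tested cell cycle genes were called lower at the top, and the Paneth cell genes, which mark the crypt base, reached a mean of 14.08 to 15.44 in sections labelled villus bottom and 14.24 in the lower crypt. In such bulk sections, fewer cells of a type and less RNA per cell cannot be told apart.

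Stem cell genes were higher at the villus bottom than at the top. Over all groups, 6 of the 7 genes were called lower at the top (limma, adjusted p under 0.05 over 26517 probe sets) and Axin2 was called higher at the top. The background was high, since 54.5% of all probe sets were called, 28.9% lower at the top and 25.6% higher. The median difference, top minus bottom, was -2.13 over the 7 genes and 0.02 over all probe sets. Without control rat 3 and repleted rat 3, all 7 genes were still called, in the same directions.

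Smoc2 (probe set 1392965_a_at) had a bottom level of 14.18 to 15.85 with a median of 14.72 in the 20 counted samples. Its top level was 8.52 to 12.94 with a median of 11.09. The top and bottom samples did not overlap, which held for 5.19% of all probe sets in this direction. Smoc2 was 14.8-fold lower at the top (log2 difference -3.88 ± 0.17, SE, n = 20, limma adjusted p = 8.5e-15). The other probe sets of Smoc2 gave -2.07 ± 0.23 and -2.33 ± 0.25 (SE), with adjusted p of 5.29e-08 and 2.27e-08, so all 3 were lower at the top.

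Ascl2 (1368721_at) was at 7.97 to 11.87 in the bottom samples, with a median of 10.02. In the top samples it was at 5.89 to 9.44, with a median of 6.79, and only 1 of 20 was above the dim limit. The bottom level was the higher one in 20 of 20 samples, which held for 11.3% of all probe sets. The log2 difference was -2.84 ± 0.25 (SE, n = 20, limma adjusted p = 9.04e-10). Most top values were dim, and the difference was -1.98 with a pseudocount 4 times as large.

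Lgr5 (1384420_at) showed a smaller and more variable difference. Bottom samples were at 9.58 to 12.03 with a median of 10.53, and top samples at 6.75 to 10.89 with a median of 9.78, so the segments overlapped. Lgr5 was above the dim limit in 20 bottom samples and in 16 top samples. The bottom was higher in 18 of 20 samples, and the exceptions were deficient rat 4 and Belgrade rat 4. Lgr5 was 2.26-fold lower at the top (-1.17 ± 0.16, SE, n = 20, limma adjusted p = 1.33e-06).

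Among the Wnt response genes, Myc, Ephb3 and Cd44 were also higher at the bottom, in 20 of 20 samples each. Myc (1368308_at) was at 11.17 to 13.69 at the bottom (median 12.02) and at 6.19 to 11.53 at the top (median 9.93). Its difference was -2.49 ± 0.19 (SE, n = 20, limma adjusted p = 9.71e-11), and the ranges of the segments overlapped slightly. The lowest top value belonged to repleted rat 2.

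Ephb3 (1385788_at) was at 10.08 to 11.95 at the bottom (median 10.59) and at 7.25 to 10.35 at the top (median 8.61). It was above the dim limit in 20 bottom samples and in 7 top samples. The difference was -2.13 ± 0.17 (SE, n = 20, limma adjusted p = 2.13e-10). Its ligands of the ephrin B class could be read in part, and neither of the 2 measured was called, with Efnb1 at -0.20 and Efnb3 at 0.59.

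Cd44 (1368921_a_at) was at 12.28 to 14.33 at the bottom (median 13.23) and at 11.30 to 12.04 at the top (median 11.71). The segments did not overlap, and the top samples spanned a narrow range. The difference was -1.56 ± 0.11 (SE, n = 20, limma adjusted p = 8.85e-12). The second probe set gave -1.39 ± 0.12 (SE, adjusted p = 4.36e-10), again with no overlap.

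Axin2 (1387184_at) ran the other way. Top samples were at 9.17 to 13.66 with a median of 12.58, and bottom samples at 10.89 to 13.38 with a median of 11.64. The top was higher in 17 of 20 samples, and the exceptions were control rats 3 and 4 and repleted rat 3. The difference was 0.63 ± 0.23 (SE, n = 20, limma adjusted p = 0.0245), or 1.55-fold.

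The Axin2 call was not a firm one. It was lost when control sample 1-2 (adjusted p = 0.0609), repleted rat 1 (0.0693), repleted rat 2 (0.0602) or Belgrade sample 1-2 (0.0526) was left out in limma, and also without the variance trend (0.0561). Over all alternatives the adjusted p ranged from 9.43e-08 to 0.0693 and the difference from 0.45 to 0.96, always higher at the top. Repleted rat 3 was far from the rest, at 9.17 at the top and 13.38 at the bottom. With that rat alone left out, the difference was 0.91 (limma adjusted p = 2.06e-07). Without it and control rat 3 the difference was 0.96, which is over 1.5 times as large.

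**Figure D1:**
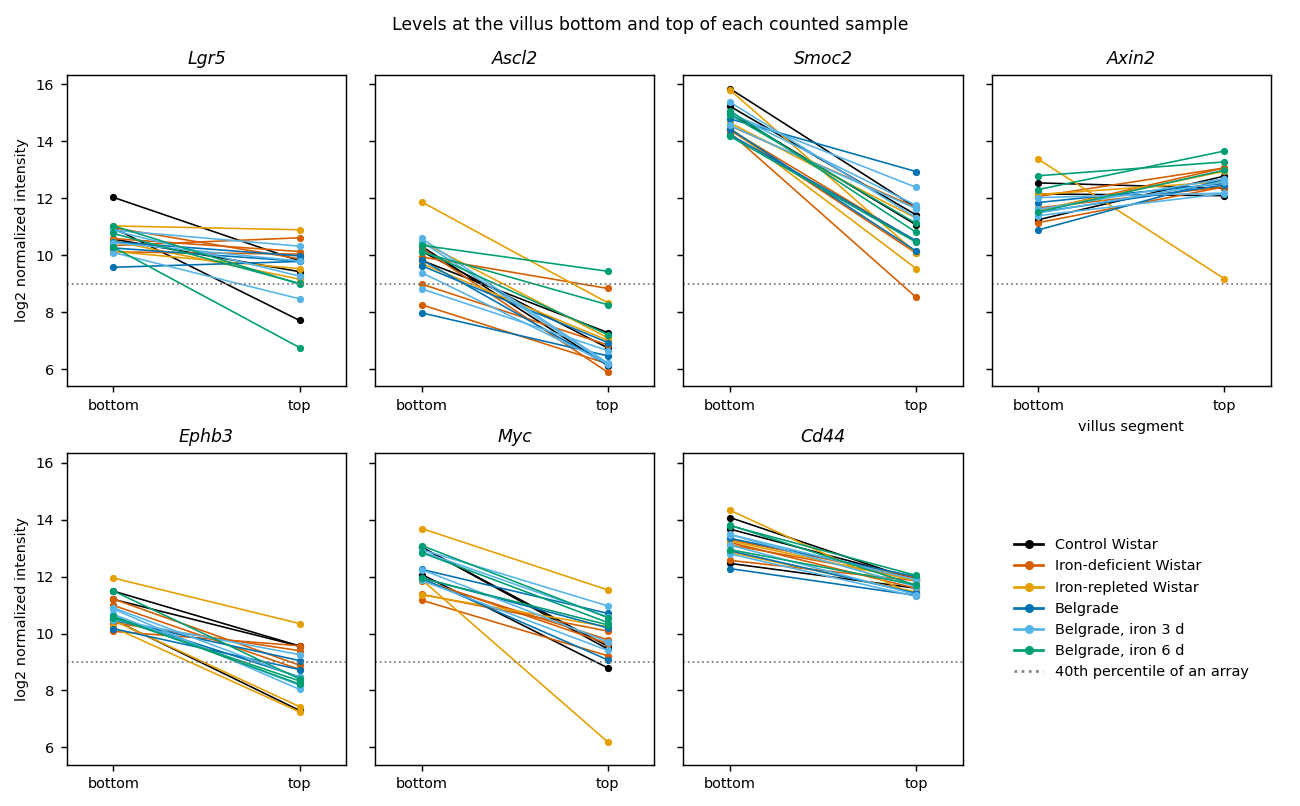
Log2 normalized intensity (vertical axis) at the villus bottom and top for the 7 genes, with 1 line per counted sample (n = 20) coloured by group and a dotted line at the dim limit of 8.99. Lines fall from bottom to top in 20 of 20 samples for Ascl2, Smoc2, Ephb3, Myc and Cd44 and in 18 of 20 for Lgr5, and they rise in 17 of 20 for Axin2.

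Within single groups the same fit called 6 of 7 genes lower at the top in the control rats, 5 in the deficient, 5 in the repleted, 5 in the Belgrade, 6 in the Belgrade rats fed iron for 3 days and 6 in those fed iron for 6 days. The shares of all probe sets called lower at the top were 13.4%, 16.5%, 19.1%, 10.2%, 14.7% and 13.1% in that order. Smoc2, Ascl2, Ephb3, Myc and Cd44 were called in all 6 groups. Axin2 was called in none of them, with differences of 0.43, 1.12, -0.80, 1.14, 0.77 and 1.10. Lgr5 made up the other difference between the counts, since it was called in 3 groups.

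Lgr5 in the control samples was at 10.57, 10.96 and 12.03 at the bottom and at 9.42, 7.71 and 9.80 at the top. Its top minus bottom difference was -2.21 ± 1.05 (SD, n = 3, limma adjusted p = 2.64e-04). All 3 samples were lower at the top by at least 1.14, and the top value of 7.71 was dim.

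In the deficient rats Lgr5 was at 10.97, 10.58, 10.12 and 10.34 at the bottom and at 9.87, 10.13, 10.04 and 10.61 at the top. The difference was -0.34 ± 0.58 (SD, n = 4) and was not called. One rat was lower at the top by 1.09, and the other 3 lay between -0.45 and 0.27. The repleted rats were at 10.50, 10.14 and 11.03 at the bottom and at 9.16, 9.52 and 10.89 at the top, a difference of -0.70 ± 0.61 (SD, n = 3) that was not called.

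In the Belgrade samples on a normal diet Lgr5 was at 10.26, 10.47 and 9.58 at the bottom and at 9.79, 9.98 and 9.78 at the top. The difference was -0.25 ± 0.40 (SD, n = 3) and was not called. After iron for 3 days the bottom was at 10.44, 10.09, 10.87 and 10.88 and the top at 9.80, 8.47, 9.27 and 10.32. That difference was -1.11 ± 0.58 (SD, n = 4, limma adjusted p = 0.0236), and all 4 rats were lower at the top. After iron for 6 days the bottom was at 10.27, 10.76 and 11.03 and the top at 6.75, 9.01 and 8.98, a difference of -2.44 ± 0.95 (SD, n = 3, limma adjusted p = 1.03e-04). The tops at 6.75 and 8.98 were dim, and so was that at 8.47 after iron for 3 days.

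That Lgr5 was called in 3 groups and not in the other 3 does not show that the groups differ, so the differences were compared directly. In the test over all 6 groups Lgr5 had the lowest p of the 7 genes and did not pass adjustment (limma adjusted p = 0.312). In limma, 0 of 7 genes were called in it and 1 of 7 had an unadjusted p under 0.05, while 0% of all probe sets were called and 2362 had such an unadjusted p. Top minus bottom was higher, that is less negative, by 1.87 ± 0.55 (SE) in the deficient than in the control rats (limma adjusted p = 0.184), where 0.0415% of all probe sets were called. In the Belgrade samples it was higher than in the controls by 1.96 ± 0.59 (SE, limma adjusted p = 0.342), where 0% were called. These comparisons share the control samples. After iron for 6 days it was lower than in the Belgrade samples, with a log2 difference of -2.19 ± 0.59 (SE, limma adjusted p = 1.00), where again 0% were called. Dim top values, as given above, enter the control and 6-day iron groups, so the size of these differences is uncertain.

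In these 3 comparisons the Lgr5 differences of the groups did not overlap, at -3.25 to -1.14 in the controls, -1.09 to 0.27 in the deficient, -0.49 to 0.20 in the Belgrade and -3.52 to -1.76 after iron for 6 days. Groups that do not overlap in the same direction were found for 5.82%, 8.42% and 5.33% of all probe sets in the comparisons of deficient with control, Belgrade with control and iron for 6 days with Belgrade. Control rat 3 weighed on the first comparison of Lgr5, which was 1.35 without it (limma adjusted p = 0.767) against 2.40 without control sample 1-2 (0.0891). Over all alternatives the adjusted p of that comparison was 0.0581 to 0.767, so it was called in none.

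**Figure D2:**
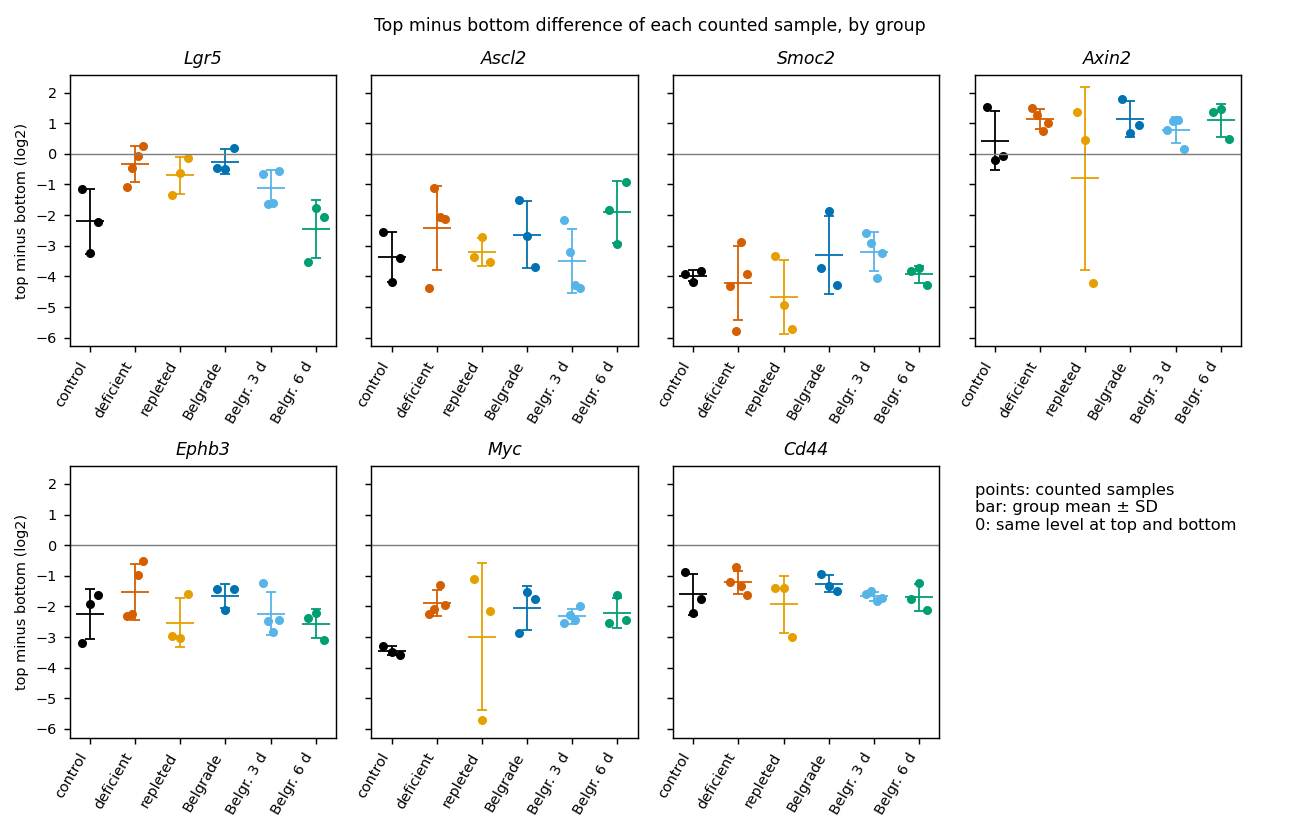
Top minus bottom difference in log2 units (vertical axis) for each counted sample of the 6 groups, with bars at the group mean ± SD (n = 3 or 4) and a line at 0, where both segments have the same level. The control and 6-day iron samples of Lgr5 lie at or below -1.14 and the Belgrade samples at or above -0.49, while Smoc2 and Cd44 lie below 0 in every sample.

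Levels of the 7 genes did not differ between the groups beyond the threshold. For the mean of top and bottom, 0 of 7 genes were called in the test over all 6 groups, where 0.0189% of all probe sets were called, and 1 of 7 had an unadjusted p under 0.05 in limma, which was Smoc2 (adjusted p = 0.339). None was called in any single comparison either. The shares of all probe sets called were 0.404% for deficient against control, 0.0679% for repleted against control, 0.0113% for Belgrade against control and 0% for the other 3 comparisons, where 3385, 730 and 1120 probe sets had an unadjusted p under 0.05 (repleted against deficient, and iron for 3 and for 6 days against Belgrade). At an unadjusted p under 0.05 in limma, 1 of 7 genes passed for deficient against control, 2 for iron for 6 days against Belgrade and 0 for the other 4. Over all 26517 probe sets such a p was found for 3750, 4012 and 1592 in the comparisons of deficient, repleted and Belgrade with control.

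Smoc2 was the gene with p under 0.05 in the deficient rats. Its bottom levels were 15.00, 15.85 and 15.23 in the control samples, 14.40, 14.31, 14.55 and 14.41 in the deficient rats and 14.65, 14.47 and 15.81 in the repleted rats. The deficient rats lay below all controls, and the repleted rats spanned both. At the top, Smoc2 was at 11.07, 11.67 and 11.42 in the controls and at 10.07, 8.52, 11.68 and 10.48 in the deficient rats, which overlapped.

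The mean of both segments was 1.07 lower in the deficient rats (-1.07 ± 0.36, SE, limma adjusted p = 0.163), and the bottom alone gave -0.94 ± 0.29 (SE, adjusted p = 0.204). Over the alternatives the first value was -1.34 to -0.51 with an adjusted p of 0.0955 to 0.550. At the bottom, the Belgrade samples on a normal diet (14.24, 14.79 and 14.44) also lay below all controls, with a difference of -0.87 ± 0.31 (SE, limma adjusted p = 0.765). The smooth muscle and stroma genes were at 12.94 to 15.49 in the control bottoms, at 12.43 to 12.90 in the deficient and at 12.46 to 13.62 in the Belgrade, and their part in these differences was not tested.

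Myc was likewise lower at the bottom of the deficient rats, at 11.17 to 11.89, than in the controls, at 12.07 to 13.04. The groups did not overlap, but the difference of -1.14 ± 0.43 (SE) was not called (limma adjusted p = 0.282). In that comparison of bottoms, 2 of 7 genes (Smoc2 and Myc) lay below all controls without overlap, which held for 6.51% of all probe sets, and 0% of all probe sets were called by limma, with 3391 at an unadjusted p under 0.05. All 7 genes had a bottom level that was lower on average in the deficient rats, with a median difference of -0.68 against -0.01 over all probe sets. None was called, and 2 of 7 had an unadjusted p under 0.05. The 7 directions are not independent, since all 21 pairs of these genes were positively correlated across the bottom samples.

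The same was seen for Belgrade against control at the bottom, where all 7 averages were lower, with a median of -0.66 against -0.02 over all probe sets, and none was called against 0.00377% of all probe sets. The comparisons share the control samples, and control rat 3 had the highest stroma level of the 20. Lgr5 in the Belgrade bottoms was at 9.58 to 10.47 and in the controls at 10.57 to 12.03, a difference of -1.08 ± 0.38 (SE, limma adjusted p = 0.765) that was -0.66 without control rat 4 and -1.39 without control sample 1-2. In these bottoms 2 of 7 genes, Lgr5 and Smoc2, lay below all controls without overlap, which held for 7.07% of all probe sets.

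Iron feeding of Belgrade rats left all 7 genes uncalled. After 6 days, Axin2 was at 12.99 to 13.66 at the top and 11.52 to 12.79 at the bottom, against 12.47 to 12.67 and 10.89 to 11.85 without iron. The tops did not overlap, which held for 5.61% of all probe sets in this direction. The mean of both segments was 0.77 ± 0.26 (SE) higher, and the adjusted p in limma was 1.00. Ascl2 was at 7.21 to 9.44 at the top and 10.10 to 10.35 at the bottom, against 6.14 to 6.93 and 7.97 to 9.84, and the mean was 1.42 ± 0.52 (SE) higher with an adjusted p of 1.00. At the top Lgr5 and Ephb3 went the other way, also without overlap, which held for 5.54% of all probe sets. Lgr5, dim or near the dim limit after iron, was at 6.75 to 9.01 against 9.78 to 9.98, a difference of -1.60 ± 0.62 (SE, limma adjusted p = 1.00). Ephb3, dim in most of these samples, was at 8.22 to 8.40 against 8.48 to 9.05. Xist was high in 3 of 3 rats fed iron for 6 days and in 1 of 4 without iron. With it as a covariate the Axin2 difference was 0.88 and that of the Lgr5 top minus bottom value -2.14, again not called. Groups that do not overlap in this direction for the mean of both segments were found for 2 of 7 genes and for 5.57% of all probe sets.

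The sections labelled lower and upper crypt gave 1 array each, so there is no replicate check. They came from a separate experiment, so crypt and experiment cannot be told apart when they are set beside the villus arrays. By the enterocyte and Paneth cell markers the upper crypt array was near the villus tops, at 16.23 in the mature enterocyte mean and 12.46 in the Paneth cell mean. The medians of the tops were 16.21 and 12.64. The upper crypt cell cycle mean was 10.64, above the top median of 9.86. It was within the 9.04 to 11.18 of the tops and below the 12.03 to 12.88 of the bottoms. The lower crypt array was at 14.88, 14.24 and 12.35, against bottom medians of 14.35, 14.82 and 12.60. How much crypt each section held was not tested. Between the crypt arrays, 5 of 7 genes were at least 2-fold higher in the lower crypt, where 14% of all probe sets were, and 12.2% were at least 2-fold lower. With values under the dim limit set to that limit, 4 of 7 were, and the share of all probe sets was not computed in that way. Lgr5 was at 10.97 in the lower and 7.93 in the upper crypt. The upper value is dim, and set against the dim limit the ratio was 3.94. Ascl2 was at 10.02 and 7.24, the upper value again dim, with a ratio of 2.04 against the limit. Both lower crypt levels were near the control villus bottoms, whose means were 11.18 for Lgr5 and 10.09 for Ascl2. All 7 genes were lower in the lower crypt than in the mean of these bottoms, with Cd44 at 12.04 against 13.40 and Ephb3 at 9.98 against 11.06. The share of all probe sets that were lower was not computed. Control sample 1-2 alone lay below the lower crypt in Lgr5 (10.57), Ascl2 (9.82) and Myc (12.07), and above it in the other genes.

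Smoc2 was at 13.86 in the lower and 11.21 in the upper crypt, a ratio of 6.27, while the control villus bottoms had a mean of 15.36. Its other probe sets gave smaller log2 differences, 0.39 and 1.09, the latter with a dim upper value. Myc was at 12.13 and 10.10, a ratio of 4.06, and Ephb3 at 9.98 and 8.31, of which the upper is dim, with a ratio of 1.99 against the limit. Cd44 showed little difference, at 12.04 and 11.77, and its other probe set differed by 0.52. Axin2 was lower in the lower crypt, at 11.06 against 11.86 (a log2 difference of -0.80), so its order between the crypt arrays was that of most villus samples. All 7 directions held with median centring and with the values as deposited.

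**Figure D3:**
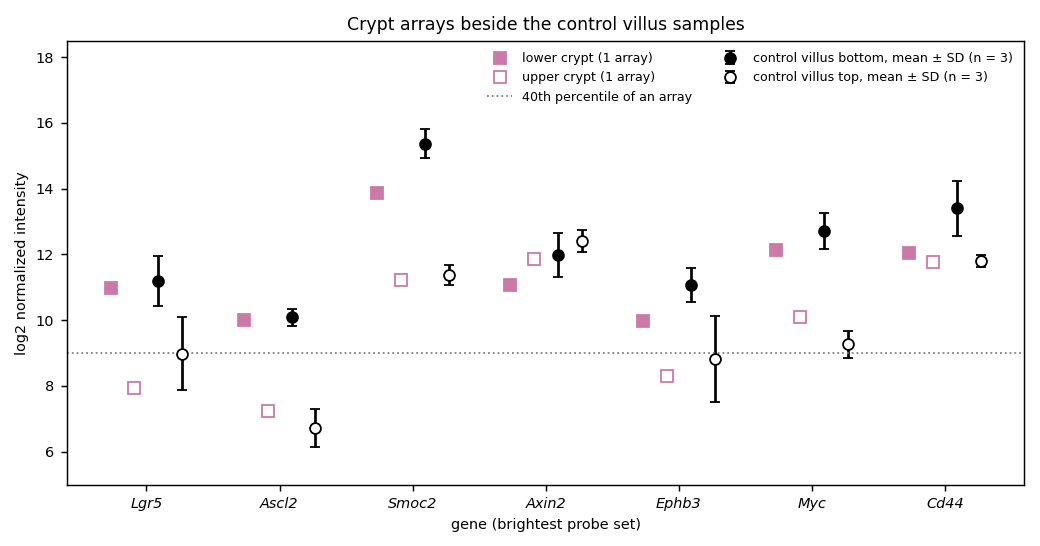
Log2 normalized intensity (vertical axis) of the brightest probe set of each gene in the lower and upper crypt (squares, 1 array each) and in the control villus bottom and top (circles, mean ± SD, n = 3), with the dim limit of 8.99 dotted. The lower crypt square is above the upper crypt square for all genes but Axin2, at 11.06 against 11.86, and the Cd44 squares nearly coincide at 12.04 and 11.77.

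Other genes of the crypt base and the pathway were read from lists. Of 13 other stem cell and crypt base genes, 8 were called lower at the top and 1 higher, with a median of -0.82. They included Prom1, a membrane protein of progenitors (-3.26), Cdca7, a cell division gene (-3.19), Lrig1, a regulator of growth factor receptors in stem cells (-3.06), and Slc12a2, a chloride cotransporter of crypt cells (-1.88). The cell cycle genes had a median of -2.82, with Ccna2 at -4.03, Cdk1 at -3.50 and Mki67 at -3.41.

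Genes of the pathway were called in both directions, as were all probe sets, of which 25.6% were higher and 28.9% lower at the top. Of 9 Wnt ligand and R-spondin genes, 3 were called higher at the top, Wnt5a (1.51), Wnt5b (1.09) and Wnt4 (0.91), and 1 lower, Wls, which carries Wnt proteins to the cell surface (-0.93). Wnt5a and Wnt5b had dim means at the bottom (7.57 and 7.82) and means near the dim limit at the top (9.13 and 9.00). Of 16 receptors and secreted antagonists, 8 were called lower at the top and 2 higher. They included the antagonists Sfrp1 (-1.93) and Sfrp5 (-0.91) and the receptors Fzd6 (-1.07) and Fzd2 (-0.86). Sfrp5 had dim means in both segments (7.96 at the top and 8.85 at the bottom), and Fzd2 had a dim mean at the top (8.27). Of 19 cytoplasmic and nuclear genes, 7 were called lower and 9 higher. The cyclins Ccnd1 (-2.46) and Ccnd2 (-1.93) and the corepressor Tle1 (-1.33) were lower at the top, and Tcf7, a TCF factor that is also a T cell gene, was higher (1.49). Of the 12 lymphocyte and plasma cell genes, 7 were called higher at the top, among them the T cell gene Cd3d (1.46). The 3 called lower were the B cell genes Pou2af1 (-2.20) and Cd79b (-1.49) and the T cell gene Cd3g (-1.40), which thus went against Cd3d. The medians of the ligand, receptor and cytoplasmic lists were 0.18, -0.27 and 0.17, against 0.02 for all probe sets.

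Some markers of the other tissue in the sections differed by position too, where 28.9% of all probe sets were called lower at the top. Of 16 smooth muscle and stroma genes, 10 were called lower at the top and 1 higher, with Actg2 at -2.20 and Tagln at -1.72, and their mean level was 12.42 to 15.49 at the bottom and 11.93 to 12.99 at the top. Paneth cell genes were called lower in 5 of 6 cases, with Pla2g2a at -4.83 and Mmp7 at -3.08. Of 13 exocrine pancreas genes, 5 were called lower, and of 4 Brunner's gland genes 2, Pgc (-2.04) and Tff2 (-1.91). The pancreas mean was high in only a few bottom samples, as given above. Of the 5 called pancreas genes, Cela1 (-2.57) was higher at the bottom in 20 of 20 samples. The others were so in 14 to 16 samples, so their calls do not describe all samples. Cd44 is also made by stromal and immune cells, and the part of the other cells in the position differences was not tested. Between groups, listed genes were called in the deficient against the control rats alone. For the mean of both segments these were Col6a1 (-0.96), Col6a2 (-1.32) and Pou2af1 (-1.87), all lower in the deficient rats. At the top, where 0.833% of all probe sets were called and 0 of the 7 genes, they were Csnk1a1, a kinase that marks beta-catenin for destruction (0.97), Vil1, a brush border protein of enterocytes (-0.71), and Pou2af1 (-3.10).

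Across the 20 bottom samples, the level of all 7 genes was higher where the mean of the stroma genes was higher. The share of all probe sets related to that mean was not computed, so the relation cannot be called particular to these genes. A total of 21 relations was computed, 7 genes with 3 lists, with permutation tests of 1e-05 as the smallest p. Pearson's r with the stroma mean was 0.83 for Smoc2 (permutation p = 2e-05, adjusted p = 0.00021, Spearman's rho 0.64, p = 0.00304) and 0.62 without the 2 farthest samples, control rat 3 and repleted rat 3. It was 0.81 for Cd44 (permutation p = 1e-05, adjusted p = 0.00021, rho 0.69, p = 0.00111) and 0.68 without them. For Axin2 it was 0.74 (permutation p = 0.00044, adjusted p = 0.00308, rho 0.59, p = 0.00738) and 0.55 without them. For Ephb3, Myc and Ascl2 it was 0.70, 0.68 and 0.67 (permutation p = 0.00096, 0.00081 and 0.00123, adjusted p = 0.00336, 0.00336 and 0.00339, rho 0.53, 0.54 and 0.71, p = 0.0171, 0.0156 and 0.00073) and 0.41, 0.50 and 0.59 without them. Lgr5 had an r of 0.48 (permutation p = 0.0347, adjusted p = 0.0429, rho 0.59, p = 0.00768) and 0.45 without them.

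After the group means were removed, with no test of these values, r with stroma was 0.89 for Smoc2, 0.82 for Cd44, 0.70 for Axin2 and 0.35 for Lgr5. With the cell cycle genes r was 0.67 for Smoc2 (permutation p = 0.00129, adjusted p = 0.00339, rho 0.66, p = 0.00194) and 0.70 for Cd44 (permutation p = 7e-04, adjusted p = 0.00336, rho 0.69, p = 0.00096). It was lowest for Myc, at 0.22, which was not past the threshold (permutation and adjusted p = 0.351, rho 0.12). With the Paneth cell genes r ran from 0.42 for Lgr5 (permutation p = 0.0596, adjusted p = 0.0626, rho 0.44, p = 0.0553) to 0.61 for Smoc2 (permutation p = 0.00421, adjusted p = 0.00982, rho 0.62, p = 0.0046). Each pair of values comes from 1 array, so array-wide shifts are shared.

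**Figure D4:**
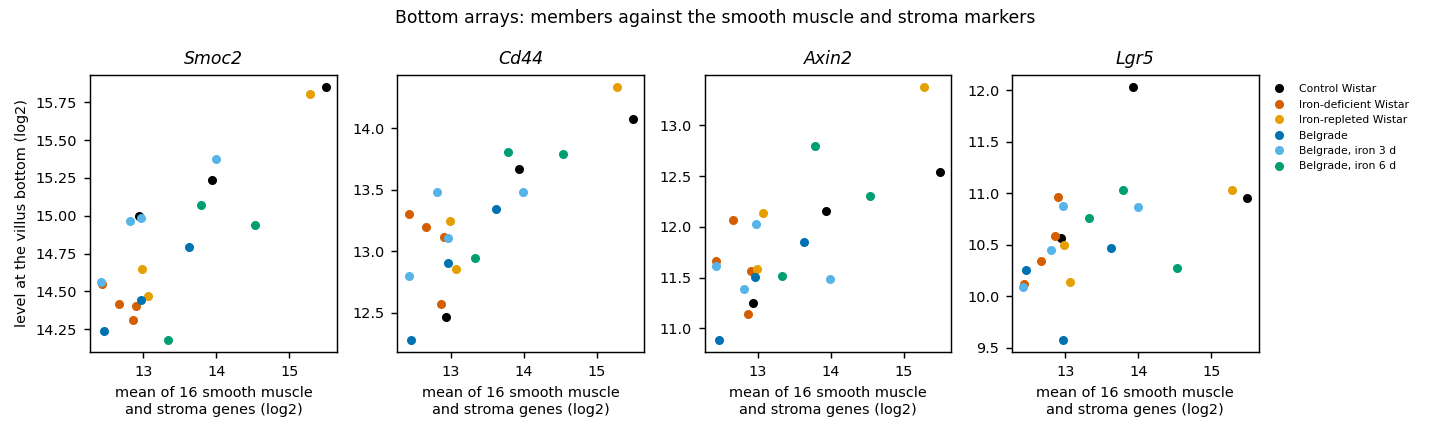
Level at the villus bottom (vertical axis, log2) of Smoc2, Cd44, Axin2 and Lgr5 against the mean level of 16 smooth muscle and stroma genes on the same array (horizontal axis, log2), with 1 point per counted sample (n = 20) coloured by group. Control rat 3 and repleted rat 3 lie at the right, at 15.49 and 15.28, and r is 0.83, 0.81, 0.74 and 0.48.

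Among themselves, 6 of the 7 genes were positively correlated over the 40 levels of both segments pooled, which differ by segment, from r = 0.54 for Lgr5 with Myc to 0.89 for Smoc2 with Cd44. Axin2 was negative with each of the other 6, from -0.45 to -0.13. Within the 20 bottom samples all 21 pairs were positive, and Axin2 with Cd44 reached 0.83. Within the 20 top samples 10 of 21 pairs were negative, from -0.57 for Axin2 with Ephb3 to 0.36 for Axin2 with Cd44, and Ascl2 with Smoc2 was at -0.38. These are descriptions over arrays that share rats and segments. Of 12975 genes searched, those most like Smoc2 over the 40 levels were Mki67, a proliferation marker, and the mitochondrial chaperones Hspe1 and Hspd1, each with r of 0.98. Those most like Lgr5 were Rmi1, Tceal8 and Ifrd2, with r of 0.76, 0.76 and 0.73.

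Cd44 was most like Dynll2 (0.95), Cand1 and Nedd4 (both 0.94), Myc like Nup37, RatNP-3b (both 0.90) and Nnt (0.89), and Ephb3 like Ruvbl2, Eed and Nnt (all 0.90). Axin2 was most like Pxdn, a matrix peroxidase, Thy1, a surface protein of fibroblasts and T cells, and Macf1, a cytoskeletal crosslinker, with r of 0.84, 0.83 and 0.81. Ascl2 was above the dim limit in 17 of 40 values and was not searched.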

How the data were processed

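Rat duodenal villus and crypt sections were measured on 46 Affymetrix arrays. The values as deposited by the authors are linear intensities, with 1 value for each probe set on an array. The authors' signal algorithm is not given in the sources used here. The values show that each array had been scaled to a fixed trimmed mean, with 4 arrays (control rat 3 and rat 3 of the Belgrade rats fed iron for 3 days, both segments) at a higher one than the other 42. Such scaling hides shifts shared by most genes.

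Of 31042 probe sets, 26517 with at least 3 villus arrays above the 40th percentile of their array were kept. Values were computed as log2 of the deposited intensity plus a pseudocount of 44, the 10th percentile, which understates changes of dim genes. The 44 villus arrays were quantile normalized, and the crypt arrays were set to the same quantiles. Rats of a group whose arrays differed by a robust SD under 0.2 in both segments (0.145 to 0.177, against 0.227 to 0.707 in the other pairs) were averaged. Whether they are 1 animal is not known.

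Groups were compared in 1 fit with limma 3.58.1 in R 4.3.3 (with the package data.table, version 1.17.8), lmFit and eBayes with a trend, two-sided, Benjamini-Hochberg adjusted over all probe sets and tested on simulated data. Position was tested on the top minus bottom difference of each rat, which the labels pair; 17 of 22 top arrays correlated best with the same rat's bottom array. Rat numbers were not taken to pair groups, since same-number rats all correlated above 0.1 in 0 of 15 group pairs. Even so, 12 of 22 rats correlated best on average with their own number in other groups, so some structure by rat number is possible. The labels name separate rats. Array numbers limit the precision.

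All listed genes with a probe set were named. From other lists, up to 4 genes called by position with the largest differences, and those called between groups, were named, and the 3 genes most like each member. The members and lists were chosen with earlier results of these data known. Alternatives were the pseudocount, scaling, filter, trend, counting, an Xist covariate, the block, the probe set and leaving out samples.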

Additional observations from a re-analysis of the deposited data

Results flagged for a closer look

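Of 42 sets of 4 samples tested (group and segment, and the difference between segments), 1 held a value far from the others, where chance gives about 1 in 20. It was Ascl2 at the villus top in rat 1 of the Belgrade rats fed iron for 3 days, at 6.65 against 6.18 to 6.21 in the other 3 rats. All of these values were below the dim limit of 8.99.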

How the results depend on the processing

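Alternatives were run for the counts of the 7 genes in the position comparison over all groups and in the comparisons of levels and the 2 tests over 6 groups, not for the counts within single groups or segments, in the lists or in the crypt. The position comparison called 6 to 7 of 7 genes over 33 alternatives, 6 to 7 when each counted sample was left out in turn, and the gene lost was always Axin2. The comparisons between groups called 0 of 7 in each of 32 alternatives. With the rat number as a replicate block the counts were 7 and 0, and with top and bottom unpaired (no replicate block) the position count was 7. Counting every rat separately, or leaving out control rat 3 and repleted rat 3 together, an alternative chosen after seeing the data, also gave 7 and 0. Counts over all probe sets moved far more: deficient against control called 107 and 0 to 680 over the alternatives, repleted against control 18 and 0 to 606, Belgrade against control 3 and 0 to 64, the level test over 6 groups 5 and 0 to 253, its gradient counterpart 0 and 0 to 226, and repleted against deficient 0 and 0 to 508. The 253 calls of the level test came with the rat number as a replicate block. With the values as deposited, the median of all probe sets for deficient against control was -0.14 instead of -0.02, and -0.17 instead of -0.01 at the bottom, where median centring gave 0.11. Dim values limit Ascl2, whose position difference was -3.13 to -1.98, the smallest at 4 times the pseudocount. That of Smoc2 was -4.00 to -2.76, the smallest with the mean of its 3 probe sets.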
